A study of Mus musculus with 7 samples.

Results

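Among 22704 transcription start sites (TSSs) with a RefSeq identifier, 1885 (8.30%) had high p400 ChIP signal while the Tip60 ChIP signal stayed close to that of untagged cells. These rows were selected on 3 libraries by the mean signal from −500 to 500 bp around the TSS. The p400 signal upon GFP KD had to be at least 0.35 ppm, where ppm counts the reads over a position per 1000000 reads, and the Tip60 signal upon GFP KD had to be below 1.2 times the signal of untagged cells. The 1885 rows belong to 1742 genes and form 1664 clusters of overlapping windows, since 398 rows lay within 1000 bp of another one. A further 3222 rows reached the p400 minimum with a higher ratio of Tip60 to untagged signal, and 17597 rows had lower p400 signal.

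The study mapped Tip60, Hdac6 and p400 in mouse embryonic stem cells (ESCs) of the E14 line and asked how knockdown (KD) of one protein affects the chromatin binding of another. Flag antibody was used on Tip60-H3F ESCs with either GFP KD or Hdac6 KD, on Hdac6-H3F ESCs with either GFP KD or Tip60 KD, and on untagged wild-type ESCs with no KD labelled. An antibody to p400 was used on ESCs upon GFP KD or Hdac6 KD. The libraries used here include no input or IgG control for this antibody, so high p400 signal is not by itself evidence of binding. H3F is a histidine and Flag tag on 1 copy of the endogenous Tip60 gene or on endogenous Hdac6. KD cells were collected 72 hr after infection with a virus that carries 1 short hairpin RNA, with a hairpin to GFP as the control, and KD efficiency was not analysed here. The Tip60 KD library carries conflicting labels, because its title names Tip60 KD and its genotype field names Hdac6 KD, and the title is followed here. Each of the 7 conditions has 1 library, so no difference between libraries has a replicate check, and counting intervals cover counting error only. The libraries were normalized to between 9226740 and 31375500 reads, and a typical selected row held 15 Tip60, 18 untagged and 35 p400 reads in the 3 libraries of the selection.

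Tip60-p400 is a chromatin remodelling complex in which Tip60 (Kat5) acetylates histones and p400 (Ep400) uses ATP to exchange histone H2A for its variant H2A.Z. Both act on promoters and belong to the same complex in ESCs, where the complex is required for self-renewal and for repression of differentiation genes. Hdac6 is a deacetylase best known for cytoplasmic substrates such as tubulin.

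The promoters below belong to the 4 genes with the highest p400 signal among selected rows whose untagged signal was at or below the RefSeq median, limited to genes listed in the RefSeq promoter table (assembly GRCm38.p6). They are shown because the high p400 signal at these TSSs was not accompanied by high signal in untagged cells. Each is 250 bases of the mm9 genome, read 5′ to 3′ on the gene's strand and ending just before the first GENCODE vM1 transcript start within 500 bases of the row's TSS. Capitals mark the searched motifs on either strand, namely the CCAAT box, the GC box GGGCGG and its complement CCGCCC, and AAGATGGC, the core of the YY1 site. Psma3 lies at chr12:72075358-72075607 (plus strand), Ptma at chr1:88423061-88423310 (plus), Slmap at chr14:27354418-27354667 (minus) and Nupl1 at chr14:60870345-60870594 (minus).
Psma3: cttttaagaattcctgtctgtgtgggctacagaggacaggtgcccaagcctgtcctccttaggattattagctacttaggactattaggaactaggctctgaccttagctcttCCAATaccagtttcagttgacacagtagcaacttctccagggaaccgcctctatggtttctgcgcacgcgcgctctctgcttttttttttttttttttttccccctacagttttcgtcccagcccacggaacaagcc
Ptma: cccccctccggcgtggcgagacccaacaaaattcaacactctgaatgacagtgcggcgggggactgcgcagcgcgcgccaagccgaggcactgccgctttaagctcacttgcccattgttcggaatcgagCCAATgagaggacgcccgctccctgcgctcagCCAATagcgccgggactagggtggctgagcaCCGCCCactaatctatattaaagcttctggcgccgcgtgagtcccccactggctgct
Slmap: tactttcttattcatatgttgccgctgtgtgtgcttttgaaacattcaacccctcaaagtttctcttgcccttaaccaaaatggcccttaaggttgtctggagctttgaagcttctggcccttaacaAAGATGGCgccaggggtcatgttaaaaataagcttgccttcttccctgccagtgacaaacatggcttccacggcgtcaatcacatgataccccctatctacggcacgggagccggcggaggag
Nupl1: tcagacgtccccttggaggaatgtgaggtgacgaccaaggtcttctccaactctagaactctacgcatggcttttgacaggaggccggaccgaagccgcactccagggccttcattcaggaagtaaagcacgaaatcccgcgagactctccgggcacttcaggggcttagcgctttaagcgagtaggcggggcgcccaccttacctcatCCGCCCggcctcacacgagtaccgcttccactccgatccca
The Ptma stretch held 22 CpG dinucleotides and the Nupl1 stretch 19, against 7 in Psma3 and 8 in Slmap. Ptma had 2 CCAAT boxes and 1 GC box, Psma3 had 1 CCAAT box, Nupl1 had 1 GC box, and Slmap had 1 AAGATGGC.

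At Psma3, which encodes an alpha subunit of the proteasome core, the p400 signal was 0.645 ppm in GFP KD cells (56 reads, 95% exact Poisson interval 42.3 to 72.7) and 0.227 ppm upon Hdac6 KD (24 reads). Tip60 at Psma3 was at 0.150 ppm in GFP KD cells and 0.185 ppm upon Hdac6 KD, Hdac6 was at 0.169 ppm in GFP KD cells and 0.174 ppm upon Tip60 KD, and untagged cells were at 0.140 ppm. The other libraries of equal read span lay between 0.140 and 0.227 ppm at Psma3. The distance of p400 upon GFP KD from them is a description, since the gene was picked for that high value. Hdac6 reads span 148.4 to 148.6 bp against 299 bp elsewhere, and ppm grows with the span. Hdac6 values in ppm therefore cannot be compared with those of other libraries, here or at the genes below. Ptma, the gene of the nuclear protein prothymosin alpha, had p400 signals of 0.551 ppm in GFP KD cells and 0.151 ppm upon Hdac6 KD. Its Tip60 signal was 0.137 ppm in GFP KD cells and 0.257 ppm upon Hdac6 KD, its Hdac6 signal was 0.250 ppm in GFP KD cells and 0.357 ppm upon Tip60 KD, and its untagged signal was 0.137 ppm. At Ptma the first Tip60 library was level with the untagged cells, and a value near or below them was a condition of the selection. Slmap, which encodes a tail-anchored membrane protein, had 0.543 and 0.187 ppm of p400 upon GFP KD and Hdac6 KD, 0.107 and 0.258 ppm of Tip60 upon GFP KD and Hdac6 KD, 0.230 and 0.242 ppm of Hdac6 upon GFP KD and Tip60 KD, and 0.142 ppm in untagged cells. Nupl1, a gene of a nuclear pore protein, had 0.507 and 0.292 ppm of p400, 0.148 and 0.270 ppm of Tip60, and 0.183 and 0.274 ppm of Hdac6 in the same order of libraries, and 0.125 ppm in untagged cells. At all 4 genes the Tip60 signal upon Hdac6 KD lay above the untagged signal, which is a description only, since the genes were picked for low untagged signal.

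The other 4 genes of this kind did not share one pattern in the libraries outside the selection. Creld2, which encodes an endoplasmic reticulum protein, had 0.497 ppm of p400 upon GFP KD and 0.106 ppm in untagged cells, and its Tip60 signal was 0.054 ppm (4 reads) upon GFP KD and 0.286 ppm (19 reads) upon Hdac6 KD. The first of these Tip60 values was one of those the selection used. 2410129H14Rik, annotated as Mzt1 in GENCODE, had 0.508 ppm of p400 and Tip60 signals of 0.157 ppm (11 reads) and 0.043 ppm (3 reads) upon GFP KD and Hdac6 KD. Cpeb4, which encodes an RNA-binding regulator of translation, had 0.500 ppm of p400, and its 2 Tip60 values of 0.119 and 0.123 ppm were both below its untagged value of 0.136 ppm. Rimbp3 had 0.525 ppm of p400 and Tip60 values of 0.117 and 0.121 ppm against 0.141 ppm in untagged cells. The row of Rimbp3 starts in a coding exon 850 bp inside the annotated transcript and that of Cpeb4 lies 1332 bp upstream of the nearest annotated start, whereas the other 6 TSSs lie in an annotated UTR.

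**Figure D1:**
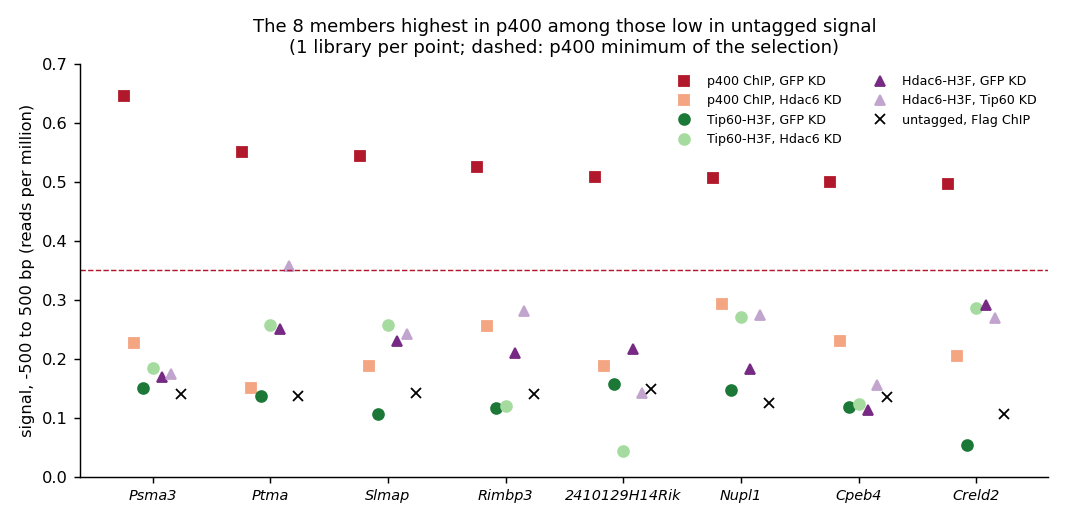
Signal from −500 to 500 bp in ppm (y axis) at the 8 selected genes with the highest p400 among those with untagged signal at or below the RefSeq median (x axis), 1 point per library. The p400 value upon GFP KD (dark red squares, 0.497 to 0.645 ppm) lies above the other libraries of equal read span at each gene, which the selection favoured. Triangles show Hdac6, whose reads span 148.4 to 148.6 bp against 299 bp elsewhere, so their height cannot be compared with the other points. Light green points show Tip60 upon Hdac6 KD from 0.043 ppm at 2410129H14Rik to 0.286 ppm at Creld2.

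The values that chose the rows are given here as a description. The median p400 signal upon GFP KD was 0.402 ppm in the selected rows (quartiles 0.373 and 0.449), 0.430 ppm in the other p400-high rows and 0.198 ppm in the rows with lower p400. The median Tip60 signal upon GFP KD was 0.203, 0.310 and 0.153 ppm in the same order. The median untagged signal was 0.230, 0.169 and 0.140 ppm. The selected rows were therefore set apart on both sides of the ratio, with Tip60 signal 34.4% below and untagged signal 35.5% above the medians of the other p400-high rows. Of the selected rows, 1728 (91.7%) had untagged signal at or above the RefSeq median, against 2005 (62.2%) of the other p400-high rows, and 5.52% were among the 1% of RefSeq rows with the highest untagged signal, against 0.931%.

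The depth at single TSSs did not separate most selected rows from the threshold. The Tip60 to untagged ratio had a median of 0.918 with quartiles of 0.758 and 1.06 and a lowest value of 0.211, and 1204 rows had less Tip60 than untagged signal. The 95% exact counting interval of the ratio reached 1.2 in 1750 (92.8%) of the selected rows and lay below it in 7.16%. Among the other p400-high rows the interval lay above 1.2 in 639 (19.8%). At the edge of the ratio, Ggnbp2 and Trp53bp2 lay just below 1.2 and were kept, while Ccdc115 and Isca1 lay just above it and were not. At the edge of the p400 minimum, Prom1 and Zdhhc21 reached 0.35 ppm and were kept, and Arhgef15 and Fbxo27, with 0.349 ppm each, were not.

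The second Tip60 library, made upon Hdac6 KD, was not used in the selection. Its median signal was 0.193 ppm in the selected rows (quartiles 0.141 and 0.258), 0.215 ppm in the other p400-high rows (0.151 and 0.295), 0.129 ppm in the rows with lower p400 and 0.143 ppm over all RefSeq rows. The selected rows were thus 10.0% below the other p400-high rows in this library and 1.5 times the rows with lower p400. In it, 1394 selected rows (74.0%) and 2503 other p400-high rows (77.7%) were at or above the RefSeq median. Set against untagged cells, 388 selected rows (20.6%) reached 1.2 times the untagged signal, as did 1808 (56.1%) of the other p400-high rows and 35.6% of all RefSeq rows, but the untagged values themselves chose the rows. The median ratio of this library to untagged cells was 0.829 in the selected rows, with 1224 of 1884 rows below 1. The name of the set as promoters without Tip60 signal thus refers to Tip60 relative to untagged cells. It does not describe a low Tip60 level, since 1286 selected rows (68.2%) were at or above the RefSeq median in the Tip60 library that defined the set too. The untagged signal of the selected rows was itself 1.64 times that of the rows with lower p400. The 2 Tip60 libraries differ in KD, so the second is no replicate of the first. Described by size, 5.79% of the selected rows were at least 2-fold higher and 9.77% at least 2-fold lower in the second library than in the first, where the shares over all rows were 6.66% and 19.6%. Nothing is read from these shares, because the selection favoured a low value in the first library.

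The difference between the 2 kinds of p400-high rows in the second Tip60 library varied with the p400 signal at which they were compared. For p400 signals from 0.35 to 0.40 ppm its median was 0.180 ppm in 912 selected rows and 0.184 ppm in 1141 others, and from 0.40 to 0.45 ppm it was 0.202 and 0.198 ppm. At p400 signals of 0.60 ppm or more, it was 0.275 ppm in 37 selected rows and 0.336 ppm in 317 others. With the p400-high rows split into 4 equal groups by untagged signal, the selected rows were lower in each, from 0.146 against 0.177 ppm in the lowest group to 0.215 against 0.293 ppm in the highest. Along the ratio that made the selection, the median Tip60 signal upon Hdac6 KD went from 0.176 ppm in the 83 rows with a ratio below 0.5, through 0.204 ppm just below the threshold and 0.191 ppm just above it, to 0.267 ppm in the 361 rows with a ratio of 3 or more.

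**Figure D2:**
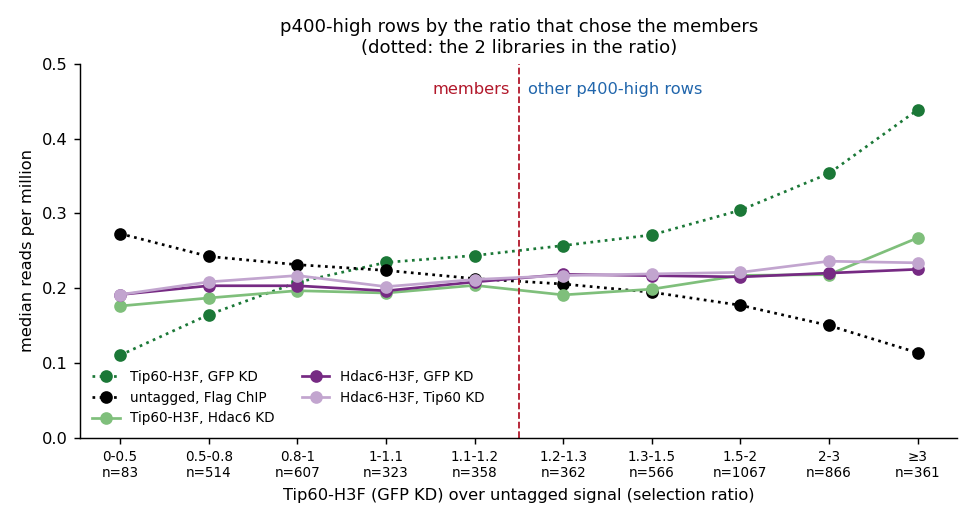
Median signal in ppm (y axis) of the p400-high rows by the ratio of Tip60 (GFP KD) to untagged signal (x axis, with the number of rows in each range), 1 line per library. The dotted lines are the 2 libraries in the ratio and cross by construction, while Tip60 upon Hdac6 KD (0.176 to 0.267 ppm) and Hdac6 upon GFP KD (0.191 to 0.225 ppm) show no step at the threshold, drawn as a dashed line.

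Flag ChIP signal of Hdac6-H3F cells at the selected rows was nearly at the level of the other p400-high rows. The median upon GFP KD was 0.203 ppm in the selected rows (quartiles 0.157 and 0.256), 0.218 ppm in the other p400-high rows and 0.124 ppm in the rows with lower p400. Of the selected rows, 1509 (80.1%) were at or above the RefSeq median of 0.146 ppm, against 2754 (85.5%) of the others. The mean Hdac6 signal of the selected rows was 2.07 times that of their flanks from 1000 to 2000 bp away, against 2.21 times in the other p400-high rows and 1.52 times in the rows with lower p400. Upon Tip60 KD the medians were 0.210, 0.225 and 0.125 ppm. The medians of the selected rows were 6.98% and 6.60% below those of the other p400-high rows in the 2 Hdac6 libraries, which played no part in the selection. The untagged control has no match in read span for Hdac6, because the reads of the Hdac6 files span 148.4 to 148.6 bp and those of the other files 299 bp. The selection favoured high untagged signal, with a median of 0.230 ppm in the selected rows and 0.169 ppm in the other p400-high rows. How much of the Hdac6 signal was such Flag background was not tested.

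No selected row passed the comparison of Hdac6 signal between Tip60 KD and GFP KD by the exact binomial test on reads with Benjamini-Hochberg adjustment over 22335 rows, against a background of 0% higher and 0% lower over all rows, and the smallest adjusted p among the selected rows was 0.806 (this test compares 2 libraries, not the conditions). At an unadjusted p under 0.05, 53 selected rows were higher and 31 lower, of 524 and 328 over all rows. By size alone, 75 selected rows (3.98%) were at least 2-fold higher and 69 (3.66%) at least 2-fold lower upon Tip60 KD, where the shares over all rows were 8.46% and 7.87%. The other p400-high rows were close to the selected ones, with 4.35% and 3.32%. Depth differed too, as the median row held 16 Hdac6 reads upon GFP KD in the selected rows, 17 in the others and 12 over all rows. In simulated reads at these depths, the test recovered 51% of 200 rows changed 4-fold that had a mean of at least 10 reads. Cd36, the gene of a fatty acid receptor, went from 0.051 ppm (4 reads) to 0.261 ppm (17 reads), and 3200002M19Rik from 0.266 ppm (21 reads) to 0.068 ppm (4 reads). Neither passed the adjusted threshold.

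**Figure D3:**
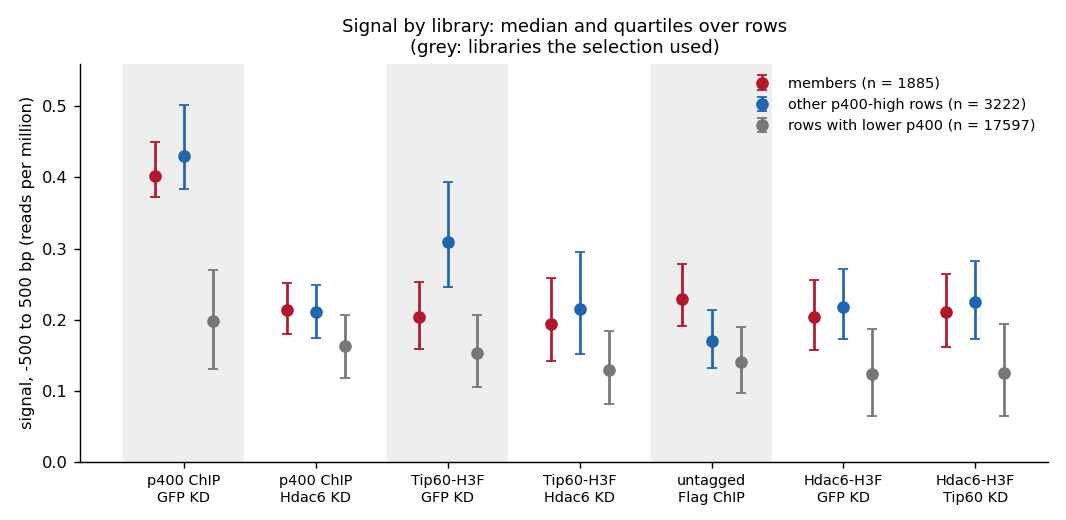
Median signal from −500 to 500 bp in ppm (points) with quartiles over rows (bars) in the 7 libraries for the selected rows (members, red), the other p400-high rows (blue) and the rows with lower p400 (grey). Shaded libraries made the selection, and in the 4 unshaded ones the red medians of 0.193 to 0.214 ppm lie close to the blue medians of 0.211 to 0.225 ppm and above the grey ones.

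The p400 signal of the selected rows was lower upon Hdac6 KD, with a median of 0.214 ppm against 0.402 ppm upon GFP KD. The median ratio of the 2 p400 libraries was 0.507 (quartiles 0.423 and 0.611), against 0.467 in the other p400-high rows and 0.712 over all RefSeq rows. In 912 selected rows (48.4%) the value was at least 2-fold lower, as in 1910 (59.3%) of the others and 22% of all rows, while 0 selected rows were 2-fold higher (3.01% of all rows). Since the selection required a high first value, these ratios and counts are a description. Only 21 selected rows (1.11%) and 44 others (1.37%) still reached 0.35 ppm. For p400 signals from 0.35 to 0.40 ppm upon GFP KD the median ratio was 0.556 in the selected rows and 0.540 in the others, and at 0.60 ppm or more it was 0.347 and 0.330. Upon Hdac6 KD the medians of the 2 kinds of rows, 0.214 and 0.211 ppm, differed by 1.48%.

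The 4 lowest and 4 highest p400 ratios of genes are given with the reads behind them. These genes were picked for extreme ratios, and the selection required a high p400 value upon GFP KD. The intervals cover counting error only and make no allowance for this choice. Cd36 had 1.82 ppm of p400 upon GFP KD and 0.110 ppm (12 reads) upon Hdac6 KD, a ratio of 0.060 with a 95% exact interval of 0.031 to 0.111. Its other 5 libraries lay between 0.051 and 0.275 ppm, where the Hdac6 libraries have shorter reads. Hdx, a homeobox gene on chromosome X, had 0.763 and 0.074 ppm of p400 (ratio 0.097, interval 0.041 to 0.204). The histone H4 gene Hist1h4k had 33 and 7 reads (ratio 0.162) and Tbc1d25 had 34 and 7 (ratio 0.175). At the other end, Trim72, Crxos1, H2-Bl and H2-Q6 had ratios of 1.1, 1.07, 1.05 and 1.04, with intervals that all included 1. H2-Bl and H2-Q6 are genes of the major histocompatibility complex, and like the histone genes they have close copies whose reads the mapping may have placed at random, so their values are uncertain.

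Averaged around the TSS, p400 upon GFP KD had a single maximum in the selected rows, of 0.502 ppm at 20 bp, against 0.544 ppm at 60 bp in the other p400-high rows. Hdac6 signal upon GFP KD peaked at 80 bp (0.275 ppm) in the selected rows and at 120 bp (0.291 ppm) in the others, with a mean from −100 to 300 bp of 0.255 ppm against 0.166 ppm from −600 to −200 bp in the selected rows. The maximum of the single rows, after smoothing over 100 bp, lay at or downstream of the TSS for Hdac6 in 1130 selected rows (59.9%), which compares with 1918 (59.5%) of the others. Tip60 upon GFP KD had no central maximum in the selected rows, which the selection favoured. It was at 0.203 ppm at the TSS and reached 0.228 ppm at −580 bp and 0.224 ppm at 300 bp, while the other p400-high rows reached 0.374 ppm at 140 bp. Upon Hdac6 KD the Tip60 profile of the selected rows had a dip at the TSS (0.195 ppm) between 0.224 ppm at −400 bp and 0.214 ppm at 300 bp, and that of the others reached 0.249 ppm at −400 bp and 0.251 ppm at 140 bp. Untagged cells had a like shape at the selected rows, with 0.227 ppm at the TSS, 0.258 ppm at the upstream maximum (−380 bp) and 0.249 ppm at the downstream one (340 bp). The selection also favoured high untagged signal near the TSS. The untagged signal over its flanks was 1.3 in the selected rows and 0.918 in the other p400-high rows. The same measure was 1.23 and 1.34 for Tip60 upon Hdac6 KD.

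**Figure D4:**
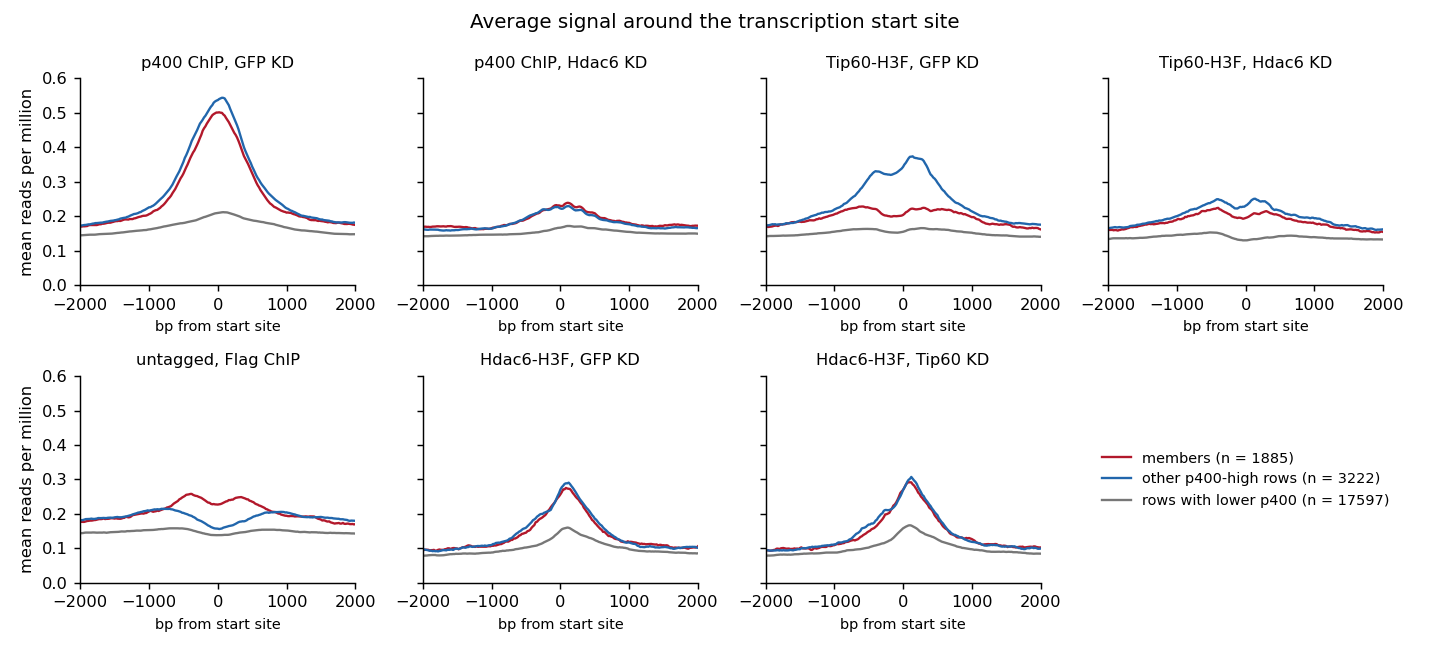
Mean signal in ppm (y axis) from −2000 to 2000 bp around the TSS (x axis) in each of the 7 libraries for the selected rows (members, red), the other p400-high rows (blue) and the rows with lower p400 (grey). Red and blue nearly coincide for Hdac6 and p400 and differ most for Tip60 upon GFP KD, where blue reaches 0.374 ppm at 140 bp, and in untagged cells, both of which the selection used.

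The selected promoters were rich in CpG, like the other p400-high promoters but to a lesser degree. From −500 to 500 bp the median GC content of the mm9 sequence was 59.0% in the selected rows, 60.6% in the other p400-high rows and 53.0% in the rows with lower p400. The observed to expected ratio of CpG dinucleotides was at least 0.6 in 1478 selected rows (78.4%), against 2877 (89.3%) of the others and 45.7% of all RefSeq rows. The share of selected rows among the p400-high rows was 46.3% at a GC content below 50% and 21.1% at 70% or more, and the median untagged signal of the p400-high rows moved with it from 0.239 to 0.136 ppm. Within the selected rows, GC content also went with the levels in the libraries outside the selection. The median Tip60 signal upon Hdac6 KD was 0.243 ppm below 50% GC and 0.151 ppm at 70% or more, and the median Hdac6 signal upon GFP KD was 0.132 and 0.266 ppm. At each GC range up to 70% the selected rows were below the other p400-high rows in the second Tip60 library, for example 0.212 against 0.245 ppm from 55 to 60% and 0.181 against 0.208 ppm from 60 to 65%. The part of GC content in these differences was not tested.

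Letters of several promoter motifs were counted on both strands of the 300 bases from 250 before to 50 after each TSS in mm9. GGGCGG, the GC box of the Sp1 family, was present in 68.1% of the selected rows, 70.9% of the other p400-high rows and 45.8% of all RefSeq rows. Motifs were counted independently and may overlap, and CACGTG, TGACGTCA and CTCGCGAG read the same on both strands. CCAAT was present in 38.1%, 38.1% and 36.4%. CCGGAAGT, an ETS site, was present in 11.4%, 11.6% and 4.90%, and GCATGCGC, the core of the NRF1 site, in 7.75%, 6.55% and 3.12%. The TATA box TATAAA was present in 4.77%, 5.09% and 12.5%. For the other motifs, the shares in the selected, the other p400-high and all RefSeq rows are given in that order. They were 10.2%, 14.9% and 7.66% for CACGTG (the E-box) and 3.24%, 4.31% and 2.19% for TGACGTCA (the cAMP response element). They were 5.25%, 8.13% and 3.43% for AAGATGGC and 1.59%, 3.79% and 1.16% for CTCGCGAG. The differences between the 2 kinds of rows were not tested. In the RefSeq promoter table, which lists 1267 of the 1742 genes, GGGCGG was present in 63.2% of 1669 promoters of these genes and in 35.7% of all 32851 promoters. A start on the opposite strand lay within 1000 bp upstream of 389 selected rows (20.6%), 802 other p400-high rows (24.9%) and 9.60% of all RefSeq rows. Chromosome X held 5 selected rows (0.265%), 7 other p400-high rows (0.217%) and 4.03% of all RefSeq rows.

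Gene groups were formed by symbol, and selected rows made up 36.9% of all p400-high rows. Of 17 p400-high rows with a proteasome symbol, 12 were selected (70.6%). They included the core subunits Psma2, Psma3, Psmb1, Psmb2, Psmb3 and Psmb5 and the regulatory particle subunits Psmc6, Psmd1, Psmd2 and Psmd8, together with the proteasome activator gene Psme4, while Psmc3ip, although named after a proteasome subunit, encodes a recombination factor. The proteasome rows had 0.373 to 0.645 ppm of p400 upon GFP KD, and 7 of the 12 were at least 2-fold lower upon Hdac6 KD, against 48.4% of all selected rows and 22% of all RefSeq rows. Their Tip60 signal upon Hdac6 KD was at or above the RefSeq median in 9 of 12, close to the 74.0% of all selected rows, and ranged from 0.055 ppm at Psme4 to 0.375 ppm at Psmb2. Of 12 p400-high histone rows, 7 were selected, including Hist1h4k, Hist1h2be and Hist2h2bb. Of these 7 rows, 5 were at least 2-fold lower in p400 upon Hdac6 KD, against 48.4% of all selected rows and 22% of all RefSeq rows. The count is small, and histone genes have close copies whose reads the mapping may have placed at random.

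Few p400-high rows with the symbol of a cytosolic ribosomal protein were selected. Of 85 p400-high rows with an Rpl or Rps symbol, 8 were selected (9.41%), and 4 of these, Rpl5, Rps26 and 2 rows of Rpl29, belong to ribosomal proteins. The others were Rps6ka5 and Rps6kc1, which encode kinases, the ribosomal protein-like gene Rpl7l1 and Rps19bp1, whose product binds a ribosomal protein. Rpl5 had 0.513 ppm of p400 and 0.35 ppm of untagged signal, and its Tip60 signals of 0.315 and 0.322 ppm in GFP KD cells and Hdac6 KD were both high for the set. Rps26 had 0.438 ppm of p400 and Tip60 signals of 0.278 and 0.439 ppm, the second of which was the highest of the 8 rows. All 8, ribosomal or not, were at or above the RefSeq median in Tip60 upon Hdac6 KD, as were 74.0% of all selected rows. Of 47 p400-high rows of mitochondrial ribosomal proteins, 17 were selected (36.2%), and 8 of these were at or above the RefSeq median in Hdac6 signal, against 80.1% of all selected rows. RNA processing genes contributed 17 of 80 p400-high rows (21.3%), among them the helicase gene Dhx9 with 0.584 ppm of p400.

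**Figure D5:**
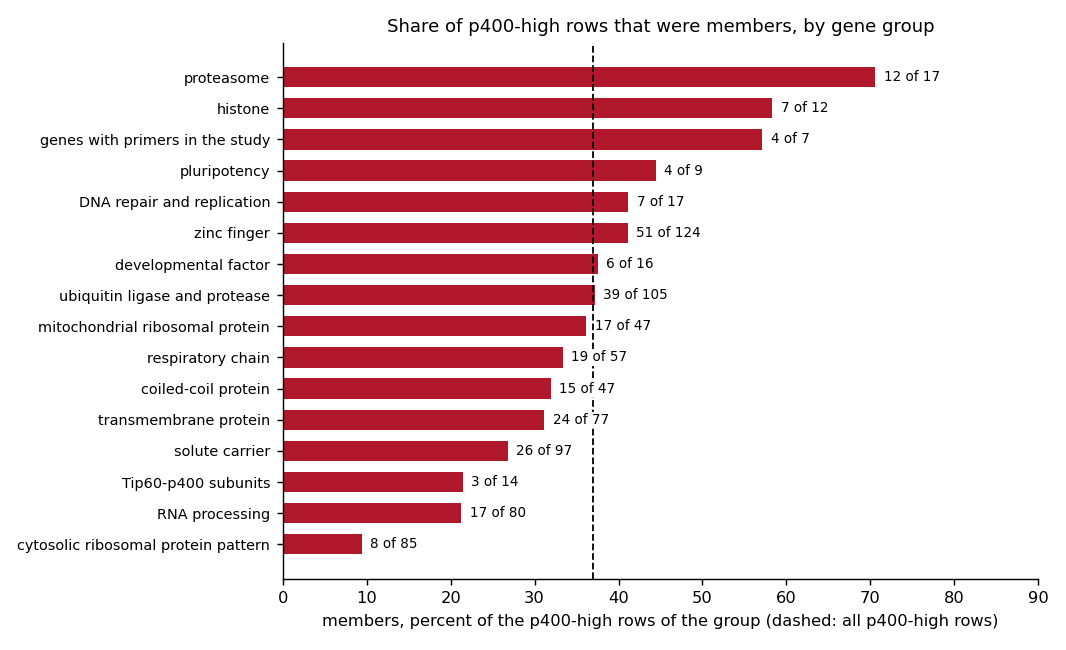
Percent of the p400-high rows of each gene group that were selected (bars), with the counts beside each bar and the share over all p400-high rows, 36.9%, as a dashed line. The share was 70.6% for proteasome symbols and 9.41% for Rpl and Rps symbols, and groups with few rows have few counts behind the bar.

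The other symbol groups are given by their counts. Zinc finger genes gave 51 selected rows (41.1% of their p400-high rows), ubiquitin ligase and protease genes 39 (37.1%), respiratory chain genes 19 of 57 (33.3%), solute carriers 26 of 97 (26.8%), Tmem genes 24 of 77 (31.2%) and Ccdc genes 15 of 47 (31.9%). Developmental transcription factor symbols gave 6 of 16 (37.5%), of which Sox2, Gata2 and Foxc2 encode such factors, while Foxred2, Paxip1 and Gatad2a encode other proteins. Of 1339 chemosensory receptor rows 1 was p400-high and 0 were selected.

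Of the Tip60-p400 complex itself, 14 of 31 rows were p400-high and 3 were selected, those of Actl6a, Epc2 and Ruvbl2. Actl6a, which encodes the actin-related subunit BAF53a, had p400 signals of 0.399 and 0.161 ppm in GFP KD cells and Hdac6 KD and Tip60 signals of 0.129 ppm (9 reads) and 0.380 ppm (25 reads). The untagged signal at Actl6a was 0.158 ppm, and Hdac6 was at 0.245 ppm in GFP KD cells and 0.157 ppm upon Tip60 KD. The first Tip60 value at Actl6a was one of those that chose the row, so the difference between the 2 Tip60 values is a description. Epc2, an enhancer of polycomb homologue in the complex, had p400 signals of 0.359 and 0.107 ppm and Tip60 signals of 0.115 and 0.174 ppm. Ruvbl2, an ATPase shared with other complexes, had p400 signals of 0.363 and 0.279 ppm and Tip60 signals of 0.243 and 0.201 ppm.

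Of the pluripotency list, 9 of 25 rows were p400-high and 4 were selected. Pou5f1, which encodes Oct4, had p400 signals of 0.407 and 0.155 ppm in GFP KD cells and Hdac6 KD, Tip60 signals of 0.339 ppm (25 reads) and 0.119 ppm (8 reads), Hdac6 signals of 0.264 and 0.298 ppm in GFP KD cells and Tip60 KD, and an untagged signal of 0.341 ppm. The untagged signal at Pou5f1 was as high as the Tip60 signal upon GFP KD. Klf2 had 0.488 ppm of p400, 0.325 ppm in untagged cells and Tip60 signals of 0.197 and 0.109 ppm. Klf5 had 0.396 ppm of p400, 0.238 ppm in untagged cells and Tip60 signals of 0.194 and 0.104 ppm. Sox2 had 0.372 ppm of p400, 0.281 ppm in untagged cells and Tip60 signals of 0.188 and 0.133 ppm. All 4 were below the RefSeq median of 0.143 ppm in Tip60 upon Hdac6 KD, whereas 26.0% of all selected rows were.

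Of 17 p400-high rows of DNA repair and replication genes, 7 were selected, among them rows of Xrcc5, Xrcc6 and Mcm2, and all 7 were at or above the RefSeq median in Tip60 upon Hdac6 KD (0.188 to 0.556 ppm), as were 74.0% of all selected rows. Xrcc5, which encodes the Ku80 end-joining protein, had Tip60 signals of 0.382 and 0.556 ppm, 0.360 ppm in untagged cells, p400 signals of 0.428 and 0.163 ppm, and Hdac6 signals of 0.090 and 0.119 ppm. The second Tip60 value at Xrcc5 was among the 4 highest of the set, together with Sfi1, Myst2 (0.586 ppm) and 3200002M19Rik (0.560 ppm). Myst2 encodes the histone acetyltransferase Hbo1 and had p400 signals of 0.503 and 0.222 ppm, a first Tip60 signal of 0.367 ppm and an untagged signal of 0.331 ppm. Mcm2, which encodes a subunit of the replicative helicase, had p400 signals of 0.387 and 0.157 ppm and Tip60 signals of 0.204 and 0.248 ppm.

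Of the genes for which the study designed primers, 4 rows of Nodal, Zfp37 and Scamp1 were selected. Nodal, a signalling ligand of the TGF-beta family, had p400 signals of 0.359 and 0.149 ppm, Tip60 signals of 0.318 ppm (23 reads) and 0.057 ppm (4 reads), Hdac6 signals of 0.256 and 0.204 ppm and an untagged signal of 0.335 ppm. Its row lies 328 bp inside the annotated transcript, in a coding exon. Zfp37, a zinc finger gene, had p400 signals of 0.522 and 0.201 ppm, Tip60 signals of 0.208 and 0.271 ppm, Hdac6 signals of 0.176 and 0.096 ppm and an untagged signal of 0.311 ppm. Scamp1, the gene of a secretory membrane protein, had p400 signals of 0.432 and 0.198 ppm, Tip60 signals of 0.070 ppm (5 reads) and 0.226 ppm (15 reads), Hdac6 signals of 0.296 and 0.172 ppm and an untagged signal of 0.172 ppm. Nodal was near the untagged level in the first Tip60 library and far below it in the second, and Scamp1 was below it in the first and above it in the second. In ChIP-seq, the paper itself shows Nodal as a differentiation gene at which Hdac6 KD strongly lowered Tip60 binding past the TSS. Beside it, the paper gives Flag ChIP-qPCR near the promoters of target genes. The values here are instead means over both sides of the row's TSS.

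Of the 5 genes with the highest p400 signal, 4 had 1.14 to 4.38 ppm in untagged cells. Cd36 had 0.239 ppm there, near the median of 0.230 ppm of the selected rows. Sfi1, a centrosome gene, held 8.94 ppm of p400 upon GFP KD, 6.01 ppm upon Hdac6 KD, 5.06 and 4.28 ppm of Tip60, 5.09 and 5.06 ppm of Hdac6, and 4.38 ppm in untagged cells. Its signal was high in all 7 libraries. Scrt1, which encodes a neural transcriptional repressor, held 1.36 ppm of p400, 1.34 ppm of Tip60, 2.53 and 3.04 ppm of Hdac6 and 1.14 ppm in untagged cells, but 0.302 ppm of p400 and 0.289 ppm of Tip60 in the 2 libraries of Hdac6 KD cells. Glra1, a glycine receptor gene, had 1.27 ppm of p400, 1.3 ppm of Tip60, 1.47 and 1.66 ppm of Hdac6 and 1.43 ppm in untagged cells, against 0.382 and 0.279 ppm in the p400 and Tip60 libraries of Hdac6 KD cells. Rtbdn, a retinal gene, had 1.27 ppm of p400, 0.986 ppm of Tip60, 1.07 and 0.842 ppm of Hdac6 and 1.29 ppm in untagged cells, against 0.274 and 0.325 ppm upon Hdac6 KD. At Scrt1, Glra1 and Rtbdn, both libraries of Hdac6 KD cells were thus below the p400 and Tip60 libraries of GFP KD cells and the untagged one. They still lay above their RefSeq medians of 0.176 ppm for p400 and 0.143 ppm for Tip60. The Hdac6 libraries, which have shorter reads, were also high at these genes.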

How the data were processed

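Coverage signal of 7 ChIP-seq libraries (1 per condition) was used as deposited by the authors. The deposited values are signal in ppm of reads every 20 bp from −2000 to 2000 bp around each TSS. The authors collapsed reads by sequence while keeping their number, mapped them to mm9 with Bowtie (at most 1 mismatch, 1 random place for reads with several), extended them downstream to 150 bp and removed simple repeats, and their processing notes also name CASAVA 1.8.2. Isolated reads span 299 bp in all but the Hdac6 files. PCR copies were thus kept. Rows of the p400 files (22704) were joined to the Flag files (36733 rows) by RefSeq identifier and file order, which leaves 569 selected rows whose identifier occurs on several rows. The other 14029 rows were not used. Values are whole multiples of a step, so reads per row are the summed signal divided by the step and the span of an isolated read, rounded. Hdac6 reads were compared by a two-sided exact binomial test per row (Benjamini-Hochberg, adjusted p below 0.05), tested on simulated data, in Python 3.11.15 with scipy 1.17.1, pandas 2.3.3 and numpy 2.4.6. Intervals are 95% exact intervals of counting error. Named genes were the selected rows highest in p400 (all, and with low untagged signal), in Hdac6 and in Tip60 upon Hdac6 KD, those with extreme p400 ratios, those at the thresholds, and those on lists of complex subunits, pluripotency, DNA repair and primer genes. Some of these genes are not reported here. Genes named within symbol groups, and Cd36 and 3200002M19Rik for Hdac6, were chosen after their values were seen. The selection and the lists were chosen with earlier results of these data known. The alternatives were other windows, thresholds, scaling and subsets of rows.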

Additional observations from a re-analysis of the deposited data

How the results depend on the processing

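The number of selected rows depended on the rule. It was 2519 for a window of −250 to 250 bp, 820 for a window of −1000 to 1000 bp, 1204 for Tip60 below 1.0 times untagged, 469 for p400 of at least 0.45 ppm, and 559 with all libraries scaled to the same summed signal. Over 12 alternatives, 13 recomputed values moved beyond their set range (counting error or 1.5 times) and 100 did not. For the medians in ppm, this range was the counting error of 1 row at the median reads. These reads were 16 for Hdac6 upon GFP KD and 13 for Tip60 upon Hdac6 KD. It is not the error of a median over many rows. The Hdac6 median thus counted as unmoved when scaling took it from 0.203 to 0.307 ppm. The 100 therefore cannot show that these medians were stable. The alternative of keeping only rows with untagged signal at or below the RefSeq median was added once the data had been seen. The median Hdac6 signal was 0.898 to 0.993 times that of the other p400-high rows, and the median Tip60 signal upon Hdac6 KD 0.783 to 0.901 times. The share of rows at least 2-fold higher and lower in Hdac6 upon Tip60 KD was 9.59% and 9.55% for −250 to 250 bp and 0.976% and 0.854% for −1000 to 1000 bp, and 7.01% were lower among rows with low untagged signal. With a fold of 1.5, these shares were 16.3% and 12.5%, and the share lower in p400 upon Hdac6 KD was 85.5%. Among rows with low untagged signal, 46.5% reached 1.2 times untagged in Tip60 upon Hdac6 KD. No Hdac6 difference passed the test under any alternative. No paired analysis was possible because each condition has 1 library. Depth limits single rows, where the threshold ratio rests on medians of 15 and 18 reads.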
